A study of Mus musculus with 11 samples.

Results

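The genes described here are the classical axon guidance ligands and receptors: Slits and their Robo receptors, netrins and their receptors Dcc and Unc5a to Unc5d, ephrins and Eph receptors, semaphorins, plexins and neuropilins. They were chosen by gene name alone, as every gene of these families in the count table with at least 10 counts over the 11 libraries. That gave 69 of the 17557 genes tested and of the 22609 in the table. All 69 matching names passed the minimum, and the least covered were Ntn5 with 179 counts in total and Efna4 with 199.

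Guidance cues steer growing axons by attraction or repulsion. Slits repel through Robos, netrins attract through Dcc and repel through Unc5 receptors, ephrins and Ephs signal in both directions between touching cells, and class 3 semaphorins act through neuropilin and plexin complexes, most other semaphorins through plexins directly. Many of these genes stay on in the adult nervous system, where they act in synapses, myelin and vessels.

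The libraries came from bulk polyadenylated RNA of mice of mixed sex, labelled as cerebellar hemisphere. NFKO mice (3 libraries) were Pcp2-Cre;NfascFx/Fx and by design lacked the cell adhesion molecule Neurofascin in cells with Cre. AnkGKO mice (2 libraries) were Pcp2-Cre;AnkGFx/Fx and by design lacked the membrane scaffold Ankyrin G, the product of Ank3. DKO mice (3 libraries) were Pcp2-Cre;NfascFx/Fx;AnkGFx/Fx. The study's methods give the 3 controls as floxed mice without Cre, with both genes floxed in one passage and either or both in another, whereas its results text writes a Pcp2-Cre genotype for them. The labels give the background as mixed C57BL/6J;129 in one field and C57BL/6J in another, and the age as postnatal day 30 in one and 32 in another. By the study's account Pcp2-Cre acts mainly in Purkinje cells, and a change confined to those cells would be diluted by the rest of the tissue. In bulk tissue, fewer cells of a type and less RNA per cell cannot be told apart.

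Each library held 38890851 to 55822361 counts assigned to genes. Markers of the labelled tissue were uneven. Gabra6, a cerebellar granule cell gene, ranged from 0.0186 to 84.2 CPM (counts per 1000000 assigned counts, scaled between libraries by the TMM method), and the Purkinje gene Pcp2 was above 2.14 CPM only in Control 1 (26.3) and NFKO 1 (28.3). The 12 Hox genes of groups 6 to 9, which mark the trunk levels of the spinal cord rather than cerebellum, summed to between 395 and 615 CPM in every library. Ank3 was 353 to 407 CPM in the controls and NFKO libraries and 156 to 200 CPM in AnkGKO and DKO libraries, in the direction of the labels, while Nfasc in NFKO (622 to 701 CPM) overlapped control (661 to 718 CPM). Pcp2 was at most 0.374 CPM in the AnkGKO and DKO libraries, and which cells account for their lower Ank3 was not tested. The female-specific transcript Xist was at 459 to 598 CPM in Control 1 and 2 and DKO 2 and 3, at 28.4 CPM in DKO 1, and at 1.39 CPM or less in Control 3 and all NFKO and AnkGKO libraries, so sex by this measure was unevenly spread over the genotypes. The part of tissue makeup and sex in the results below was not tested, beyond the fits with granule cell genes or Xist as a covariate that are given where they matter.

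Guidance genes were expressed at ordinary levels for this tissue. Levels between genes are compared as CPM per kb of exon, since longer genes collect more reads. The median over the 69 genes was 3.07 CPM per kb, against 2.75 over the 16954 tested genes with an exon length. By far the highest was Efnb3, a transmembrane ephrin that repels corticospinal axons at the midline, at 98.5 CPM per kb (82.4 to 115 over the libraries). Sema7a, a membrane-anchored semaphorin that signals through integrins and Plxnc1, came second at 56.8. The lowest were Ntn5 at 0.142 and Robo3, a divergent Robo that lowers Slit sensitivity before the midline is crossed, at 0.171.

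Within families the order was steep. Among secreted ligands, Slit1 (5.34 CPM per kb) stood above Slit2 (1.90) and Slit3 (1.26), and Ntn1 (5.81), the founding netrin, above Ntn4 (1.71). Among their receptors, Robo1 (5.53) stood above Robo2 (3.39), and the repulsive netrin receptor Unc5b (25.3) above Unc5a (12.0), with the attractive receptor Dcc last of its group at 1.98. Epha4 (7.55) led the EphA receptors and Ephb1 (13.8) the EphB receptors, followed by the kinase-dead Ephb6 (8.57). Efna3 (10.5) led the membrane-linked ephrin-A ligands. In each of these families the lowest library of the leading gene was above the highest library of the runner-up on the per-kb scale.

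The semaphorin system was less ordered at its top. Sema4d, a ligand of Plxnb1 made by oligodendrocytes, led class 4 at 12.3 CPM per kb and did not overlap Sema4f (7.78), the next of its class. Sema3b (6.58) overlapped Sema3c (4.85) across libraries, Plxnb3 (20.6) overlapped Plxnb1 (17.4), and Nrp2 (4.25) overlapped Nrp1 (3.07). Within libraries, however, Sema3b was the highest of its class in 9 of 11, Plxnb3 of the plexins in 10 of 11 and Nrp2 of the neuropilins in 11 of 11.

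**Figure D1:**
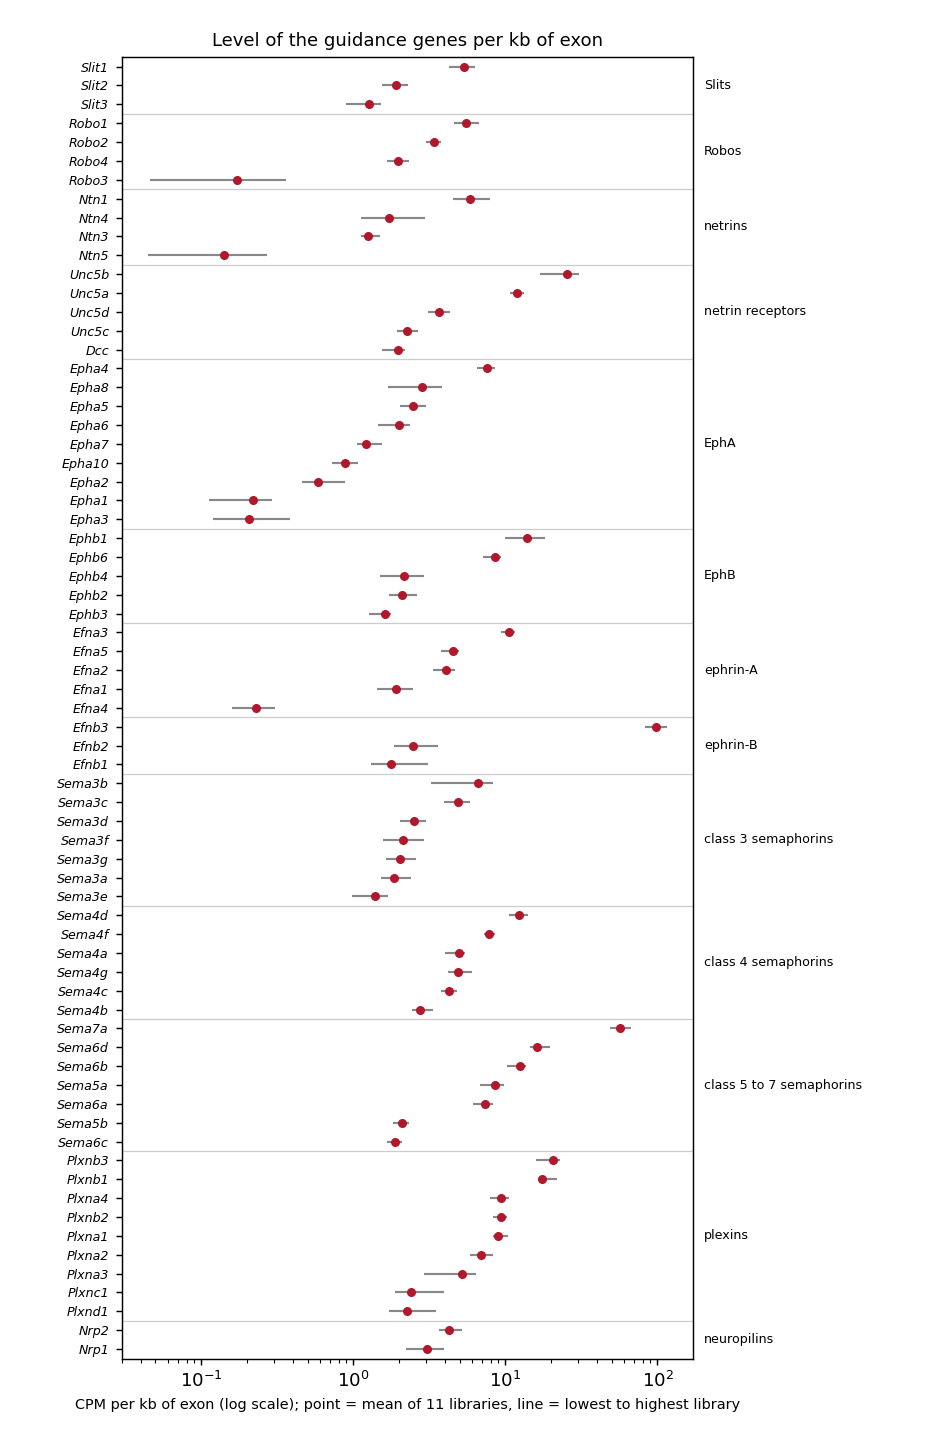
Level of each of the 69 guidance genes in CPM per kb of exon on a log axis, grouped by family. Points are means over 11 libraries and lines run from the lowest to the highest library. Efnb3 at 98.5 and Sema7a at 56.8 stand above all others, and Robo3 and Ntn5 have the longest lines.

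The first question was whether guidance gene expression differed between knockout and control tissue. No guidance gene passed the test in any comparison with control. Calling a gene took an adjusted p under 0.05 together with a log2 fold change of 0.6 or more in either direction, by edgeR's quasi-likelihood test adjusted over all 17557 genes by Benjamini and Hochberg's method. In NFKO against control 0 of 69 were called, where 0.365% of all genes tested were (64 genes), and the smallest adjusted p was 0.443. In AnkGKO against control 0 of 69 were called against 0.165% of all genes (29 genes), with a smallest adjusted p of 0.536. In DKO against control 0 of 69 were called against 0.0228% of all genes (4 genes), with a smallest adjusted p of 0.427. With such backgrounds fewer than 1 call among 69 genes would be the rate of all genes. The 3 comparisons share the control libraries.

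At an unadjusted p under 0.05 the counts were 8 of 69 (11.6%) for NFKO, where 7.69% of all genes passed, 3 (4.35%) for AnkGKO, where 5.39% passed, and 6 (8.70%) for DKO, where 7.77% passed. The 8 in NFKO were Epha1, Epha2, Efnb1, Ntn1, Nrp1, Nrp2 and Sema6d, with higher values, and Epha10, with lower ones. Those in AnkGKO were Epha1, Nrp1 and Plxnb1, all higher, and those in DKO were Epha1 and Efnb3, higher, and Epha10, Sema3e, Sema4g and Sema5a, lower. By DESeq2, the study's own test, they were 12 (17.4%), 5 (7.25%) and 12 (17.4%), where 9.30%, 7.06% and 10.6% of all genes passed. DESeq2 called 0 guidance genes in these comparisons at the same 2 thresholds, and 159, 102 and 44 genes in all. Libraries of the 2 groups did not overlap for 8 guidance genes in NFKO (11.6%, against 13.9% of all genes), 16 in AnkGKO (23.2%, against 24.0%) and 10 in DKO (14.5%, against 14.4%). The shares without overlap lie near the background. In a fit of control and NFKO alone with the replicate number as a block, an alternative chosen after seeing the data, 14 guidance genes (20.3%) had an unadjusted p under 0.05 where 12.8% of all genes did, and 0 were called. The edgeR count of 3 in AnkGKO was unstable. It was 0 with Xist as a covariate (4.47% of all genes), 1 without Control 1 (3.92%) and 6 without Control 3 (5.15%).

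The estimates were narrow enough to bound most changes. The 95% interval of the log2 fold change lay within 0.6 of 0 for 54 of 69 guidance genes in NFKO, 55 in AnkGKO and 52 in DKO (78.3%, 79.7% and 75.4%, against 65.4%, 63.1% and 64.6% of all genes). The median log2 fold change was 0.01, -0.02 and -0.06, with 46 of 69 values below 0 in DKO, against medians over all genes between -0.00505 and -0.000624. The widest intervals belonged to genes of few counts, such as Robo3 in DKO (log2 fold change -1.02, 95% interval -2.30 to 0.26).

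**Figure D2:**
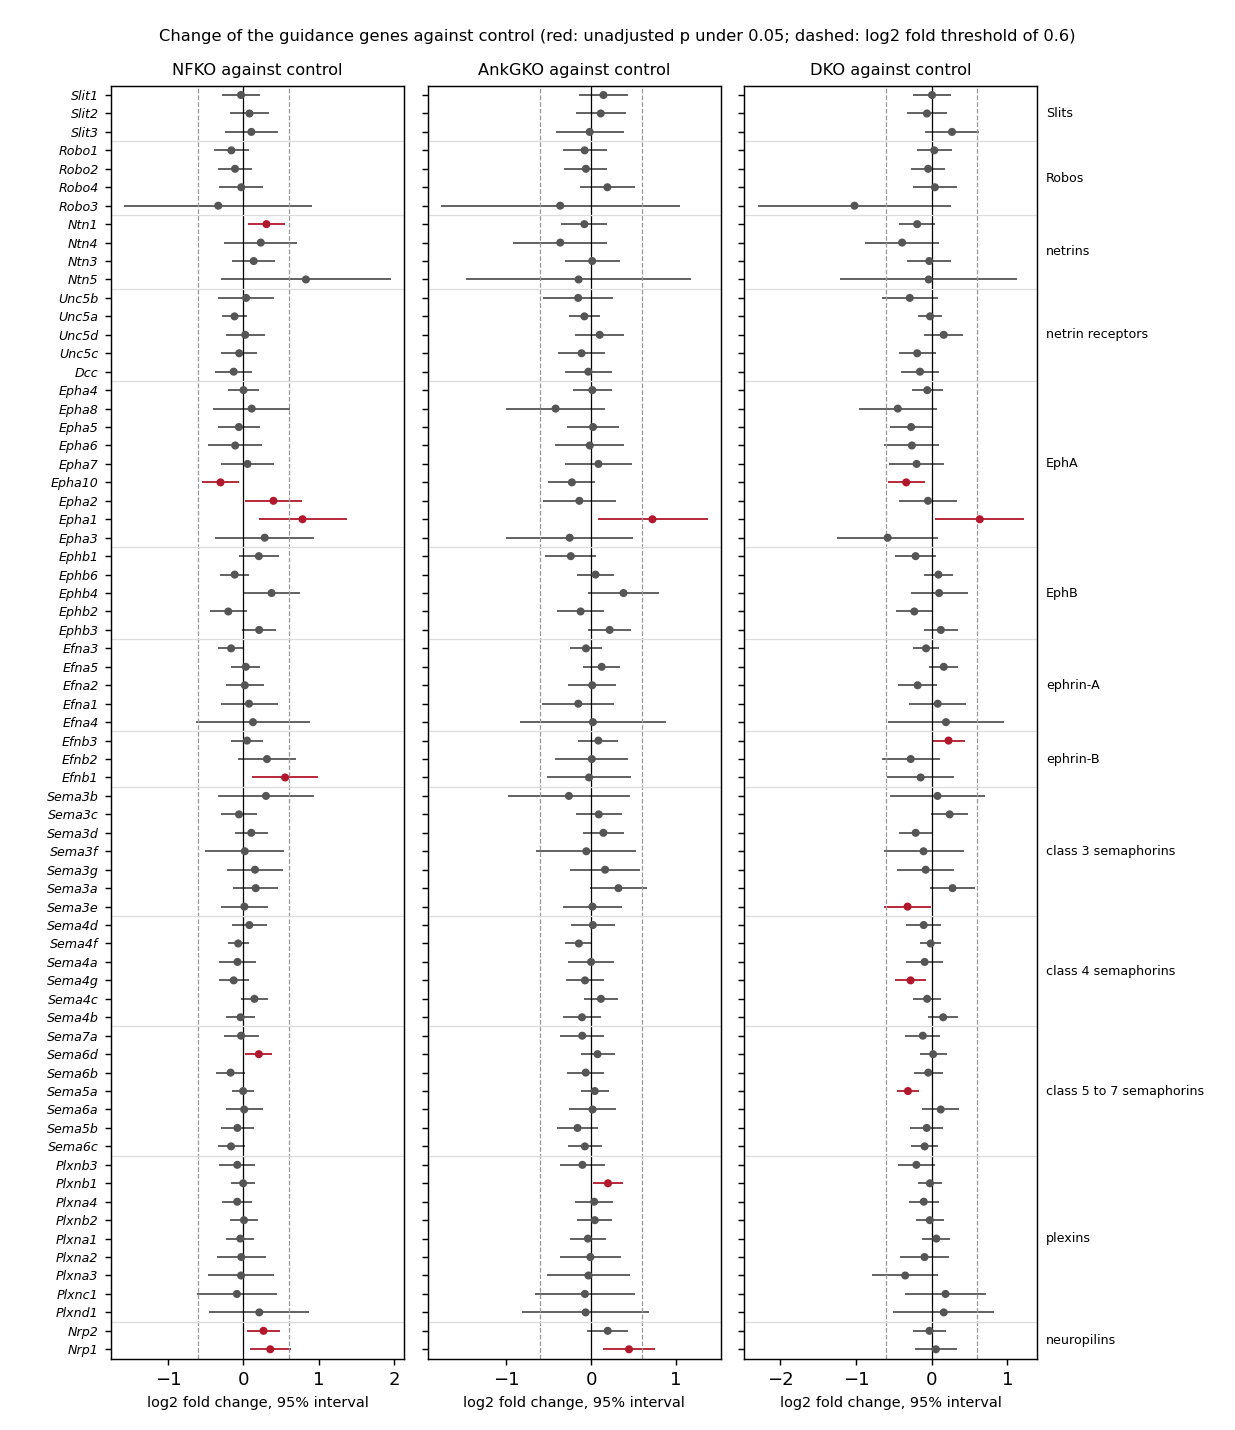
Log2 fold change with its 95% interval for each of the 69 guidance genes, by family, in NFKO, AnkGKO and DKO against control (edgeR; 3, 2 and 3 libraries against 3). Most intervals lie between the dashed lines at -0.6 and 0.6, and red marks an unadjusted p under 0.05, reached by 8, 3 and 6 genes. None passed the adjusted test.

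Among the ligands, Sema5a had the lowest p of any guidance gene in DKO. It encodes a transmembrane semaphorin with thrombospondin repeats that can both attract and repel axons, and lies on chromosome 15 (32244919 to 32696487, GRCm39). Its level was 176, 184 and 188 CPM in control, 189, 186 and 171 CPM in NFKO, 199 and 177 CPM in AnkGKO, and 139, 156 and 146 CPM in DKO. All 3 DKO libraries were below all 8 others. It was the only guidance gene of which this held, 1 of 69 (1.45%) where 3.57% of all genes had their DKO libraries all below or all above the rest.

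The log2 fold change of Sema5a in DKO against control was -0.31 ± 0.068 (SE; edgeR's quasi-likelihood test, unadjusted p 0.000638, adjusted p 0.427). Against NFKO it was -0.31 ± 0.068 (adjusted p 0.0644) and against AnkGKO -0.36 ± 0.076 (adjusted p 0.157). DESeq2 gave the same sizes with adjusted p of 0.00137, 0.000196 and 0.000271, so by that tool Sema5a passed the p threshold in each comparison and stayed short of the fold threshold. The receptors reported for Sema5a, Plxna1, Plxna3 and Plxnb3, had log2 fold changes in DKO against control between -0.35 and 0.06, and none had an unadjusted p under 0.05.

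Ntn1 gave the other low p values between knockouts. Its level was 38.7, 36.7 and 36.5 CPM in control, 51.7, 49.7 and 37.0 CPM in NFKO, 34.6 and 35.9 CPM in AnkGKO, and 34.6, 29.9 and 33.4 CPM in DKO. NFKO 1 and 2 were the highest and NFKO 3 lay among the controls, whereas every AnkGKO and DKO library was below every control library. The log2 fold change was 0.31 ± 0.110 in NFKO against control (SE, adjusted p 0.492 by edgeR), -0.19 ± 0.110 in DKO against control (adjusted p 0.669), and -0.50 ± 0.110 in DKO against NFKO (adjusted p 0.065, and 0.000829 by DESeq2, at a fold short of the threshold). Without NFKO 3 the last became -0.64 with an adjusted p of 0.00421, and the first 0.44 with an adjusted p of 0.0454, short of the fold threshold. Its receptors Dcc and Unc5a to Unc5d all had unadjusted p over 0.05 in each comparison with control.

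Among the receptors, Nrp1, the co-receptor that binds class 3 semaphorins and VEGF, was 33.9, 42.4 and 45.2 CPM in the controls and 39.1, 45.1 and 42.1 CPM in DKO. It was 52.0, 60.1 and 43.7 CPM in NFKO and 52.4 and 57.9 CPM in AnkGKO. Both AnkGKO libraries were above all controls, and NFKO 3 fell within the control range. The log2 fold change was 0.36 ± 0.126 in NFKO (SE, adjusted p 0.48 by edgeR), 0.45 ± 0.139 in AnkGKO (adjusted p 0.536) and 0.05 ± 0.126 in DKO (adjusted p 0.935). Its relative Nrp2 was 45.6, 49.6 and 47.3 CPM in control, 59.7, 62.5 and 49.3 CPM in NFKO, 48.4 and 60.3 CPM in AnkGKO and 44.3, 49.0 and 46.2 CPM in DKO, with overlap between every knockout and control.

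A pair of EphA receptors were the only guidance genes with all 3 control libraries on one side of all 8 knockout libraries, 2 of 69 (2.90%) where 1.13% of all genes were. Epha10, a kinase-dead receptor, was 9.44, 8.33 and 8.86 CPM in the controls and 6.32 to 7.86 CPM in the knockouts, with log2 fold changes of -0.30, -0.23 and -0.34 in NFKO, AnkGKO and DKO (adjusted p 0.503, 0.97 and 0.588 by edgeR). Epha1 went the other way, 0.442, 0.624 and 0.690 CPM in the controls and 0.771 to 1.16 CPM in the knockouts, with log2 fold changes of 0.79, 0.72 and 0.64 (adjusted p 0.443, 0.839 and 0.629). Epha1 rests on 457 counts in all. Of its exon length 36.9% is shared with Zyx on the opposite strand, a gene at 89.8 to 121 CPM, and the strand setting of the counting is not given in the sources used here, so part of its reads could belong to Zyx. Of the exon length of Epha10, 10.4% overlaps transcripts on the opposite strand. In all, 12 of the 69 genes share over 10% of their exon length with another gene, Ntn5 (32.9%, with Sec1) and Efna3 (30.7%) the most after Epha1.

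The remaining genes with the lowest p values had small fold changes. Sema4g was 56.5, 48.2 and 44.5 CPM in the controls and 39.2, 43.9 and 39.8 CPM in DKO, all lower (log2 fold change -0.28 ± 0.092, SE, adjusted p 0.588 by edgeR). Plxnb1, the Sema4d receptor, was 216, 222 and 225 CPM in the controls, and 225 and 281 CPM in AnkGKO, a difference that came from AnkGKO 2 (log2 fold change 0.20 ± 0.082, adjusted p 0.852). Robo2, a gene the study names among those related to neuronal development, was 74.6, 87.5 and 89.1 CPM in control, 73.2, 87.7 and 71.9 CPM in NFKO, 86.5 and 73.8 CPM in AnkGKO and 89.2, 75.2 and 78.7 CPM in DKO. Its log2 fold changes of -0.11, -0.06 and -0.05 had 95% intervals between -0.34 and 0.19 in all 3 comparisons (edgeR), and all groups overlapped. The study places Robo2 among the genes raised in AnkGKO against control. That rise was not seen here, where the AnkGKO estimate was -0.06. A rise within the interval is not excluded, and the reason for the difference from the study was not tested.

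**Figure D3:**
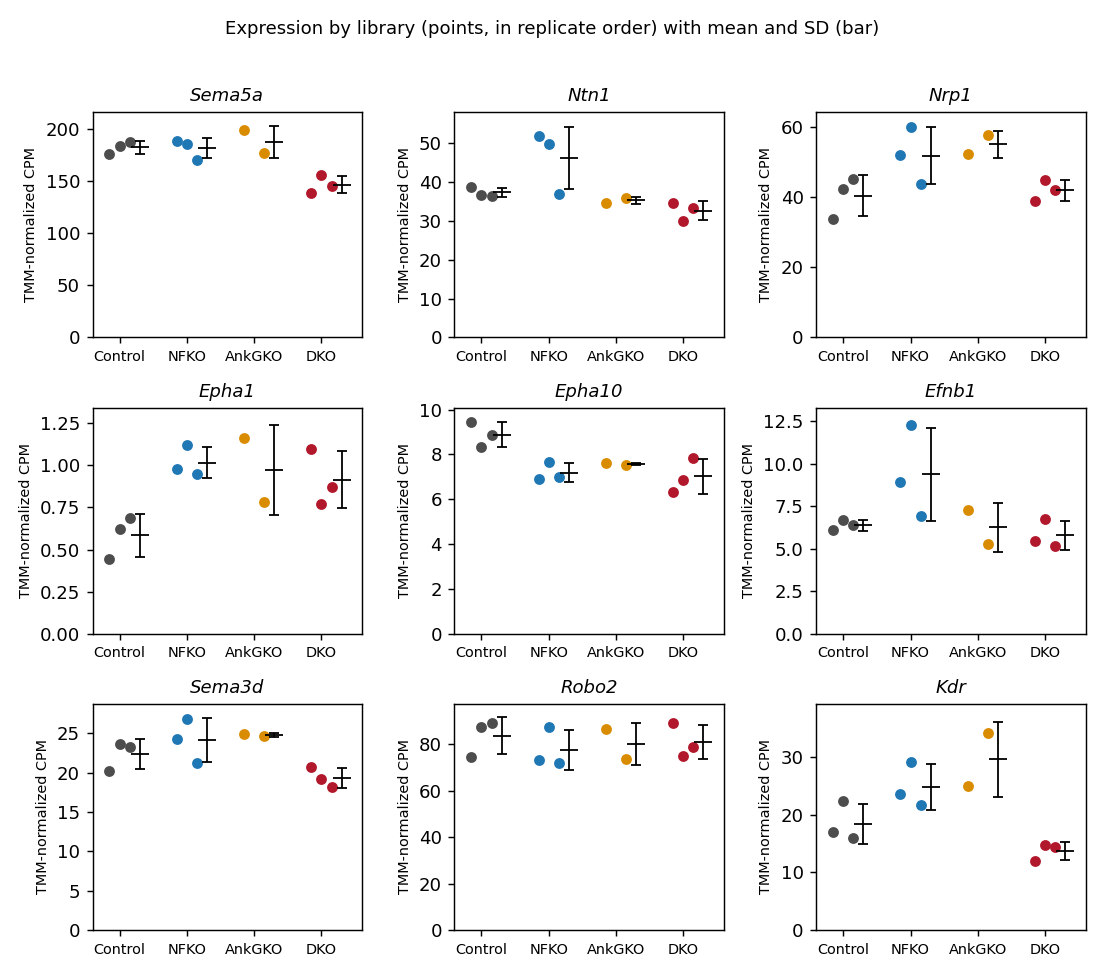
TMM-normalized CPM of 8 guidance genes and of Kdr in each of the 11 libraries, by genotype (points in replicate order, bars mean and SD, axes from 0). DKO libraries of Sema5a sit between 139 and 156 below all others, NFKO 3 of Ntn1 sits apart from NFKO 1 and 2 at 37.0, and all groups of Robo2 overlap.

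The second question was how the double knockout differed from each single one. No guidance gene was called against NFKO, where 0.615% of all genes were, and 0 against AnkGKO, where 0.171% were. At an unadjusted p under 0.05, however, 17 of 69 guidance genes (24.6%) passed in DKO against NFKO, where 16.2% of all genes did, 15 of them lower and 2 higher in DKO. Both ligands and receptors were among the 15: the netrins Ntn1 and Ntn4, the B-type ephrins Efnb1 and Efnb2, 5 semaphorins, the Eph receptors Epha2, Epha3, Epha8 and Ephb1, and both neuropilins. Among these 17 the most negative values were those of Epha3 (log2 fold change -0.87 ± 0.305, SE, adjusted p 0.201 by edgeR) and Efnb1 (-0.70 ± 0.202, adjusted p 0.139). By DESeq2, 19 guidance genes (27.5%) had an unadjusted p under 0.05 against NFKO, where 19.7% of all genes did, and 1 was called, Efnb1 (adjusted p 0.0179), among 418 calls or 2.38% of all genes. Against AnkGKO 9 had such a p by DESeq2 (13%, against 11% of all genes) and 0 were called.

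NFKO 2 was high for many of these genes. Efnb1, the X-linked B ephrin, was 8.93, 12.3 and 6.91 CPM in NFKO and 5.46, 6.73 and 5.17 CPM in DKO. Epha3 was 2.54, 3.62 and 1.41 CPM in NFKO against 1.61, 1.42 and 1.13 CPM in DKO. In both genes NFKO 2 was the highest of all 11 libraries.

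NFKO 2 was the highest library for 17 of 69 guidance genes (24.6%), counted without a minimum level. The share was 11.6% of all genes with a mean of at least 1 CPM. The 17 were Efnb1, Efnb2, Epha2, Epha3, Epha6, Ephb4, Nrp1, Nrp2, Ntn3, Ntn4, Ntn5, Plxna2, Sema3b, Sema3d, Sema3e, Sema3f and Sema3g. The same library stood apart in markers of meninges and muscle. The 6 meningeal fibroblast genes, all detected, summed to 1090 CPM there and 74.7 to 339 CPM elsewhere, with Col1a1 at 368 CPM against 8.17 to 70.1 CPM. The 6 endothelial genes summed to 342 CPM, the highest of 250 to 342 CPM, and the 5 skeletal muscle genes to 256 CPM, where other libraries had 1.87 to 141 CPM. Other marker sums moved with genotype. The 5 Schwann cell genes summed to 641 to 720 CPM in NFKO, 345 to 491 CPM in the controls, 574 and 385 CPM in AnkGKO and 307 to 557 CPM in DKO. The 6 motor neuron genes summed to 479 to 597 CPM in DKO, 217 to 464 CPM in control and NFKO, and 266 and 590 CPM in AnkGKO. The 6 astrocyte genes summed to 7660 and 7950 CPM in AnkGKO and 6430 to 6720 CPM in DKO, above the 5180 to 6140 CPM of the other groups. The part of these cell types in the results was not tested.

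Without NFKO 2 the count of guidance genes at an unadjusted p under 0.05 fell from 17 to 10 in DKO against NFKO and from 8 to 2 in NFKO against control, while the shares of all genes became 10.3% and 5.56%. The fall to 2 in NFKO against control was not particular to NFKO 2, as the count was also 2 without Control 1 (5.14% of all genes). In DKO against control the count without NFKO 2 was 10 in place of 6 (7.89% of all genes). The count in DKO against control was also 10 without NFKO 3 (8.40% of all genes) or DKO 2 (12.1%), and 3 without Control 2 (5.19%). With only the libraries compared it was 13 (18.8%, against 7.51% of all genes). Without NFKO 2 the log2 fold change of Efnb1 in DKO against NFKO became -0.45, that of Epha3 -0.51 and that of Ntn4 -0.32, from -0.62. Sema5a (-0.30) and Ntn1 (-0.44) moved less. With Xist as a covariate the counts in DKO against NFKO and NFKO against control were 11 and 1 (13.1% and 6.15% of all genes), and with granule cell genes as a covariate 13 and 10 (13.3% and 7.55%).

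In DKO against AnkGKO 5 of 69 guidance genes (7.25%) had an unadjusted p under 0.05, where 8.48% of all genes did. Sema3d, a secreted semaphorin that acts on endothelium and axons, came after Sema5a. It was 24.9 and 24.6 CPM in AnkGKO and 20.7, 19.2 and 18.1 CPM in DKO, with all DKO libraries lower (log2 fold change -0.36 ± 0.110, SE, adjusted p 0.442 by edgeR). It was 20.2, 23.6 and 23.3 CPM in control, overlapping DKO.

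The interaction of the knockouts measures how far the double knockout departs from the sum of the 2 single changes. No guidance gene was called by edgeR, where 0.53% of all genes were. At an unadjusted p under 0.05 there were 11 of 69 (15.9%), 10 of them negative, where 10.3% of all genes passed. Nrp1 had the lowest p, with an interaction of -0.75 ± 0.188 on the log2 scale (SE, adjusted p 0.151). By DESeq2, 14 guidance genes (20.3%) had an unadjusted p under 0.05, where 12.8% of all genes did. By that tool Nrp1, at the same size, had an adjusted p of 0.00489 and was the only guidance gene called, among 314 calls or 1.79% of all genes. Sema5a followed with -0.35 ± 0.102 (adjusted p 0.224 by edgeR) and Nrp2 with -0.49 ± 0.149 (adjusted p 0.25). Without NFKO 2 the count was 5 (8.07% of all genes), with Xist as a covariate 3 (7.42%) and with granule cell genes as a covariate 8 (9.84%). It was also 5 without Control 1 (7.82%) or NFKO 1 (8.51%), and 6 with the replicate block (8.75%).

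**Figure D4:**
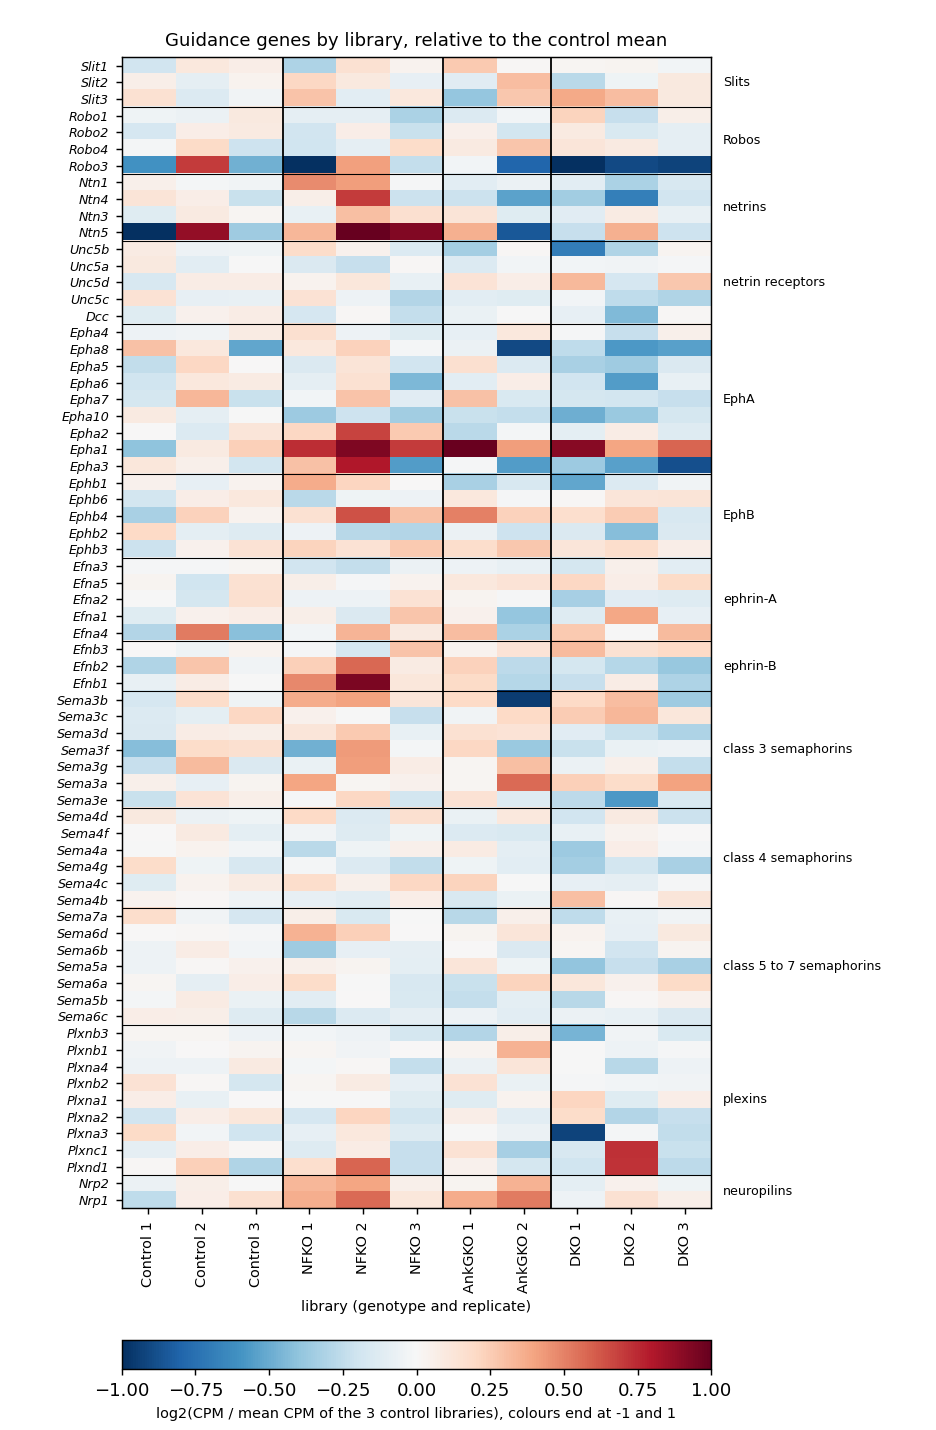
Log2 ratio of CPM in each library to the mean of the 3 control libraries for the 69 guidance genes, by family (colours end at -1 and 1). Columns are the 11 libraries. NFKO 2 is the highest library for 17 genes, single dark cells mark genes such as Plxna3 in DKO 1 and Plxnc1 in DKO 2, and Sema5a is blue in all 3 DKO libraries.

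The spread of guidance genes over libraries was close to that of other genes. Of the 66 with a mean of at least 1 CPM, the ratio of the highest to the lowest library had a median of 1.44 (1.35 over all genes with that mean), was under 1.5 for 63.6% (66.7% of all genes) and over 2 for 13.6% (13.4% of all genes). The widest was Robo3, from 0.344 CPM in NFKO 1 to 2.7 CPM in Control 2, a ratio of 7.83. Several further extremes belonged to 1 library. Plxnc1, the Sema7a receptor, was 33.8 CPM in DKO 2 and 16.2 to 22.5 CPM elsewhere. Plxna3, X-linked, was 23.1 CPM in DKO 1 and 36.9 to 50.2 CPM elsewhere. Sema3b was 16.0 CPM in AnkGKO 2 and 24.2 to 40.8 CPM elsewhere.

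Summed over families, levels are given as a description, with no test. The 9 plexins summed to 926 ± 2.47 CPM in control (SD, n = 3), 905 ± 51.6 in NFKO (n = 3), 947 ± 60.9 in AnkGKO (n = 2) and 886 ± 11.3 in DKO (n = 3). The 3 B-type ephrins, of which Efnb3 makes up most, summed to 350 ± 6.43, 368 ± 47.9, 370 ± 10.7 and 401 ± 22.9 CPM in the same order. The 4 netrins summed to 51.0 ± 1.63, 61.9 ± 9.93, 47.4 ± 0.849 and 44.5 ± 2.76 CPM, the neuropilins to 88.0 ± 7.34, 109 ± 14.9, 110 ± 12.3 and 88.6 ± 5.40 CPM, and the 9 EphA receptors to 173 ± 11.1, 172 ± 15.4, 170 ± 9.67 and 151 ± 11.1 CPM. Netrin sums were thus highest in NFKO, and EphA sums lowest in DKO. Efnb3 alone was 328, 317 and 334 CPM in the controls and 406, 363 and 374 CPM in DKO, all higher (log2 fold change 0.22 ± 0.097, SE, adjusted p 0.629 by edgeR).

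A few guidance genes are neighbours of the targeted loci. Unc5b lies 8.57 Mb and Efna2 10.2 Mb from Ank3 on chromosome 10, and the nearest to Nfasc on chromosome 1 is Epha4 at 55.0 Mb. Unc5b was 180, 164 and 165 CPM in control, 193, 175 and 154 CPM in NFKO, 134 and 171 CPM in AnkGKO and 105, 138 and 173 CPM in DKO, with overlap between every knockout and control (log2 fold change -0.29 ± 0.165 in DKO against control, SE, adjusted p 0.67 by edgeR).

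Of 97 other genes of guidance signalling, 95 were tested: 37 further cues and receptors and 58 intracellular effectors. In each comparison with control 0 of 95 were called by edgeR, against the backgrounds given above. At an unadjusted p under 0.05 there were 10 (10.5%), 4 (4.21%) and 6 (6.32%) in NFKO, AnkGKO and DKO. Of all genes 7.69%, 5.39% and 7.77% passed. In DKO against NFKO, DKO against AnkGKO and the interaction, 1, 1 and 2 of the 95 were called, where 0.615%, 0.171% and 0.53% of all genes were. The genes were Kdr in all 3 and Arhgef11 in the interaction.

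Kdr encodes VEGF receptor 2, an endothelial receptor kinase that forms complexes with neuropilin 1. It was 16.9, 22.4 and 15.9 CPM in control, 23.5, 29.2 and 21.6 CPM in NFKO, 25 and 34.2 CPM in AnkGKO and 11.9, 14.8 and 14.4 CPM in DKO. All DKO libraries were below all others. The log2 fold change was -0.86 ± 0.169 in DKO against NFKO (SE, adjusted p 0.0452 by edgeR) and -1.11 ± 0.185 in DKO against AnkGKO (adjusted p 0.046), and the interaction was -1.54 ± 0.250 (adjusted p 0.0193).

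By edgeR these calls were near the threshold. All 3 were called by DESeq2 too (adjusted p 3.09e-05, 7.35e-07 and 1.25e-07 in the same order). They were also called by edgeR with the replicate block (adjusted p 0.00528, 0.0105 and 0.00311). Leaving out 1 library at a time kept the call against NFKO in 4 of 11 fits, that against AnkGKO in 2 and the interaction in 6, with adjusted p up to 0.152, 0.382 and 0.0974, while the log2 fold change stayed at or below -0.72, -0.88 and -1.31. The highest adjusted p came without DKO 1 in the first and without AnkGKO 2 in the other two. Calls were kept against NFKO without Control 2, NFKO 3 or either AnkGKO library, and against AnkGKO without Control 2 or NFKO 2. The interaction was lost without Control 1, Control 3, AnkGKO 2, DKO 1 or DKO 3. With Xist as a covariate the calls against NFKO and AnkGKO were lost too, at larger fold changes of -1.12 and -1.40 (adjusted p 0.161 and 0.162). With granule cell genes as a covariate they were lost at -0.91 and -1.11 (adjusted p 0.0975 and 0.0628), and the interaction was kept (-1.54, adjusted p 0.0286). The 6 endothelial markers summed to 250 to 273 CPM in DKO, 253 to 297 in control, 256 to 342 in NFKO and 294 to 309 in AnkGKO, and the part of vessel content in the Kdr result was not tested.

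Arhgef11 encodes a RhoA exchange factor that binds B-type plexins. It was 192, 169 and 192 CPM in control, 144, 131 and 142 CPM in NFKO, 141 and 167 CPM in AnkGKO and 228, 197 and 204 CPM in DKO. NFKO and AnkGKO libraries were below all controls and DKO libraries above all controls. The interaction was 0.85 ± 0.127 on the log2 scale (SE, adjusted p 0.0106 by edgeR), kept in 10 of 11 fits that left out 1 library and lost without AnkGKO 1 (0.73, adjusted p 0.0648). In DKO against NFKO its log2 fold change of 0.59 had an adjusted p of 0.00619 and fell just short of the fold threshold. With Xist as a covariate neither interaction was called, at -2.03 for Kdr and 1.06 for Arhgef11 (adjusted p 0.217 and 0.12), whereas Arhgef11 was then called in DKO against NFKO (0.71, adjusted p 0.0421).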

How the data were processed

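Polyadenylated RNA of 11 libraries, 3 control, 3 NFKO, 2 AnkGKO and 3 DKO, was grouped by sample labels. The authors trimmed reads (Trimmomatic 0.39), aligned them to GRCm39 (STAR 2.7.11a) and deposited raw counts per gene. A second table that the authors deposited, the same counts divided by size factors, was not used. The 5 summary lines of the count table, 42.7% to 43.8% of each column's sum, were left out. The kit was strand-specific. The counting tool and strand setting are not given clearly: the methods name STAR's counts, the summary lines carry other names. The labels state 100 base single-end reads, the methods paired reads, and the methods 1 AnkGKO mouse more.

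Every gene that reached 10 counts in total entered a fit in edgeR 4.0.16 and R 4.3.3 (TMM, robust quasi-likelihood fit over 4 genotypes, Benjamini-Hochberg adjustment over 17557 genes). Standard errors are the log2 fold change divided by the root of F. CPM are TMM-normalized. Exon lengths and overlaps came from GENCODE vM39 on GRCm39, matched by symbol for all 69 genes. DESeq2 1.42.0 with a local fit, other filters and scalings, covariates, a replicate block and leaving out each library were alternatives. Labels call the replicates biological, so p-values reflect spread between mice. A total of 3 counts equals 0.0546 to 0.078 CPM. Scripts were tested on simulated data.

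Genes and lists were chosen with earlier results of these data known. Named were the genes of lowest p per comparison, the highest per kb of each family, the 4 most variable, Robo2, Ntn5, and genes singled out after their values were seen (such as Efnb1, Nrp2, Efnb3, Plxna3, Plxnc1). The deviations of same-numbered control and NFKO libraries from their group means correlated over genes with r = 0.57, 0.47 and 0.26. The numbers may thus pair these 2 groups, though the labels do not say what they stand for. The main fit did not use the numbers. Same-numbered NFKO and DKO libraries correlated with r = 0.056, 0.45 and 0.27, but NFKO 1 did so more with DKO 3 (0.1). In the other pairs of groups some same-numbered values were negative.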

Additional observations from a re-analysis of the deposited data

How the results depend on the processing

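The 286 recomputed fold changes were those of the lowest-p genes of each comparison, without other named genes such as Efnb1. None reversed, and 284 kept their side of the thresholds. These genes were picked by p from the same data, so a change of sign was unlikely from the start. Over all 69 guidance genes, up to 17 in a comparison changed sign under an alternative (AnkGKO against control, Xist as a covariate), none with an unadjusted p under 0.05 in that comparison by edgeR. The exceptions among the 286 were Ntn1 in DKO against NFKO without NFKO 3 (-0.64, adjusted p 0.00421) and the Nrp1 interaction by DESeq2 (-0.75, adjusted p 0.00489). The guidance genes called stayed at 0 in all alternatives except 1 (Efnb1) by DESeq2 in DKO against NFKO, 0 to 1 over left-out libraries there (Ntn1, without NFKO 3), and 1 (Nrp1) by DESeq2 in the interaction. Of the 95 other pathway genes, AnkGKO against control gained 1 call by DESeq2 (Kdr). DKO against NFKO gave 2 by DESeq2 and with only the libraries compared (Kdr, Ret), 2 with granule cell genes as a covariate (Arhgef11, Sh3bp1), 2 by adjusted p alone (Kdr, Arhgef11), and 0 to 2 over left-out libraries (0 without Control 1, Control 3, NFKO 2 or DKO 1). DKO against AnkGKO gave 0 with granule cell genes or Xist as a covariate and with only the libraries compared, and 0 to 1 over left-out libraries. The interaction gave 0 with Xist as a covariate and 1 to 2 over left-out libraries. The cause was not tested. With the replicate block over all libraries 0 guidance genes were called in any comparison and 55 genes in all in NFKO against control, against 64. In a block fit of control and NFKO alone, chosen after seeing the data, 248 genes were called, with 0 guidance genes (14 at an unadjusted p under 0.05) and 1 other pathway gene (Cd72). The block over all libraries kept the calls of Kdr and Arhgef11. With it the calls over all genes went from 29 to 21 in AnkGKO against control, 108 to 85 in DKO against NFKO and 93 to 75 in the interaction. They stayed at 4 in DKO against control and 30 in DKO against AnkGKO. Genes under about 1 CPM (Ntn5, Efna4, Epha1) are limited by depth, and with 2 or 3 libraries a group the median standard error of guidance genes in NFKO against control was 0.11 on the log2 scale.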
